A study of Mus musculus with 24 samples.

Results

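Prnp encodes the prion protein, PrP, and was measured here in the hippocampus of male mice by 2 probes of an Agilent one-colour array. These were all the non-control probes whose RefSeq accession belongs to Prnp, 2 of 56605 probes on the array. Probe A_51_P483280 is listed under NM_011170 and probe A_55_P2735036 under NM_001278256. The gene was chosen because earlier results of these data showed A_51_P483280 higher in transgenic animals, so its level in transgenic and wild-type animals is given as a description, with no test.

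The study asked what long treatment with urolithin A, a metabolite that gut bacteria make from dietary ellagitannins, does in a mouse model of amyloid deposition. Each of the 24 arrays held the RNA of 1 hippocampal sample. The APP-PS1_UA mice (n = 4) and the APP-PS1_UA-WASHOUT mice (n = 5) carried the transgenes and received urolithin A by gavage between 2 and 7 months of age. The APP-PS1_CTR mice (n = 3) and the APP-PS1_WASHOUT mice (n = 3) carried the transgenes and received water. The WT_CTR mice (n = 4) and the WT_WASHOUT mice (n = 5) carried neither transgene and received water. Animals of the washout groups lived 1 month more without gavage. The labels give an age of 8 months, and 9 months for the washout groups, whereas the design text implies an age of 7 months at the first collection. The dose is 200 mg/kg/day by the treatment protocol but 20 mg/kg/day by the design text. All 6 groups share a single strain label, and the genotype label tells carriers of the transgenes from non-carriers. No wild-type group received urolithin A, so the compound was compared only among transgenic animals.

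PrP is a glycoprotein held on the outer cell surface by a glycosylphosphatidylinositol (GPI) anchor. It is abundant in neurons and is known for its misfolded form, which causes the prion diseases, and as a binding site for amyloid-beta oligomers. The Prnp promoter is a common tool for driving transgenes in brain. In the line studied here, a chimeric mouse and human APP with the Swedish mutation is driven by a mouse prion promoter vector, and the line descends from a single founder. Vectors of this type carry transcribed but untranslated Prnp sequence around the transgene. Where each of the 2 Prnp probes lies on the Prnp transcript is not in the files used here, so which transcripts either probe detects was not tested.

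Prnp lies on chromosome 2 at 131909928 to 131938436 in GRCm38.p6, on the plus strand, a span of 28509 bases. The 250 bases before its annotated start are shown because this promoter is the element shared by the endogenous gene and the transgene vectors. The sequence is from RefSeq for GRCm38.p6, chr2:131909678-131909927, plus strand, and capitals mark matches to the motifs searched.
Prnp promoter: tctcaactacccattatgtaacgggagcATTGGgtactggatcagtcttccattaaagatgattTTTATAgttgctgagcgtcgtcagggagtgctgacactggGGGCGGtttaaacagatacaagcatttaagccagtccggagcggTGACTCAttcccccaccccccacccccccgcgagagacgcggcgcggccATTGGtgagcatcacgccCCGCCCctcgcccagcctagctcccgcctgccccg
The window was 58.8% G and C, against a median of 52.4% over 32851 promoter windows of the same length, of which 68.9% had a lower content. It held 17 CG pairs, against a median of 6. GGGCGG, the GC box bound by Sp1-type factors, was found on either strand at 2 places, with first bases 146 and 35 bases before the start, and 32.7% of all windows held it. CCAAT was also found at 2 places, with first bases at -222 and -53, and 33.8% of windows held it. TATAAA occurred once, on the minus strand at -186, and 12.4% of windows held it. TGACTCA, the AP-1 motif, occurred once at -102, and 4.46% of windows held it. GAANNTTC, the core of a heat shock element, was not among these letters, and 6.69% of windows held it. None of these matches overlapped another, and a match is a description of the letters only.

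Signals are given on a log2 scale on which 0 is the 75th percentile of the array. Levels are compared between groups for the same probe and never between probes. Both Prnp probes were well above the local background on all 24 arrays, by the scanner software's flag, with 0 outlier flags and 0 saturated spots. The processed signal of A_51_P483280 ran between 53842 and 254677 over the arrays, and that of A_55_P2735036 between 2424 and 5023. Over the series, 60.3% to 73.2% of an array's spots passed that flag. The 75th percentile ran between 1285 and 2292 signal units, and the correlation across probes within a group between 0.976 and 0.990. Marker genes of neurons and of hippocampal subfields were well above background on every array (5 of 5 and 6 of 6).

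Probe A_51_P483280 was higher on every transgenic array than on every wild-type array. It read 6.84, 6.67, 6.99 and 6.86 in APP-PS1_UA and 6.91, 6.84 and 6.84 in APP-PS1_CTR, against 5.27, 5.61, 5.25 and 5.39 in WT_CTR. At the later collection it read 6.89, 7.06, 7.04, 6.90 and 7.00 in APP-PS1_UA-WASHOUT and 6.90, 7.04 and 6.85 in APP-PS1_WASHOUT, against 5.60, 5.49, 5.44, 5.60 and 5.52 in WT_WASHOUT. The 15 transgenic arrays thus lay between 6.67 and 7.06 with a median of 6.90, and the 9 wild-type arrays between 5.25 and 5.61 with a median of 5.49. The gap of 1.06 between the lowest transgenic and the highest wild-type array was wider than the range within either genotype, 0.38 in transgenic and 0.36 in wild-type animals.

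As multiples of the 75th percentile, A_51_P483280 averaged 115 in APP-PS1_UA, 116 in APP-PS1_CTR, 126 in APP-PS1_UA-WASHOUT and 122 in APP-PS1_WASHOUT, against 41.8 in WT_CTR and 46.2 in WT_WASHOUT. On the log2 scale the group means were 6.84 ± 0.13, 6.86 ± 0.04, 6.98 ± 0.08 and 6.93 ± 0.10 in the same 4 transgenic groups, against 5.38 ± 0.17 in WT_CTR and 5.53 ± 0.07 in WT_WASHOUT (SD, n as above). From high to low the order was APP-PS1_UA-WASHOUT, APP-PS1_WASHOUT, APP-PS1_CTR, APP-PS1_UA, WT_WASHOUT and WT_CTR. The 1 step in that order at which arrays did not overlap was between APP-PS1_UA and WT_WASHOUT, a gap of 1.31. Every other pair of neighbours overlapped and differed by less than the larger of their SDs.

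The other Prnp probe showed no such separation. A_55_P2735036 read 0.95, 1.03, 1.04 and 0.93 in APP-PS1_UA and 0.94, 0.53 and 1.0 in APP-PS1_CTR, against 0.59, 1.13, 0.97 and 1.01 in WT_CTR. It read 0.90, 0.99, 0.98, 0.67 and 0.92 in APP-PS1_UA-WASHOUT and 0.71, 1.03 and 1.12 in APP-PS1_WASHOUT, against 1.12, 1.07, 1.06, 1.17 and 0.93 in WT_WASHOUT. The transgenic arrays spanned 0.53 to 1.12 and the wild-type arrays 0.59 to 1.17, so the genotypes overlapped over nearly their whole ranges. Group means were 0.99 ± 0.05 in APP-PS1_UA, 0.82 ± 0.26 in APP-PS1_CTR, 0.89 ± 0.13 in APP-PS1_UA-WASHOUT and 0.95 ± 0.22 in APP-PS1_WASHOUT, against 0.92 ± 0.24 in WT_CTR and 1.07 ± 0.09 in WT_WASHOUT (SD). All neighbours in the order of these means overlapped.

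**Figure D1:**
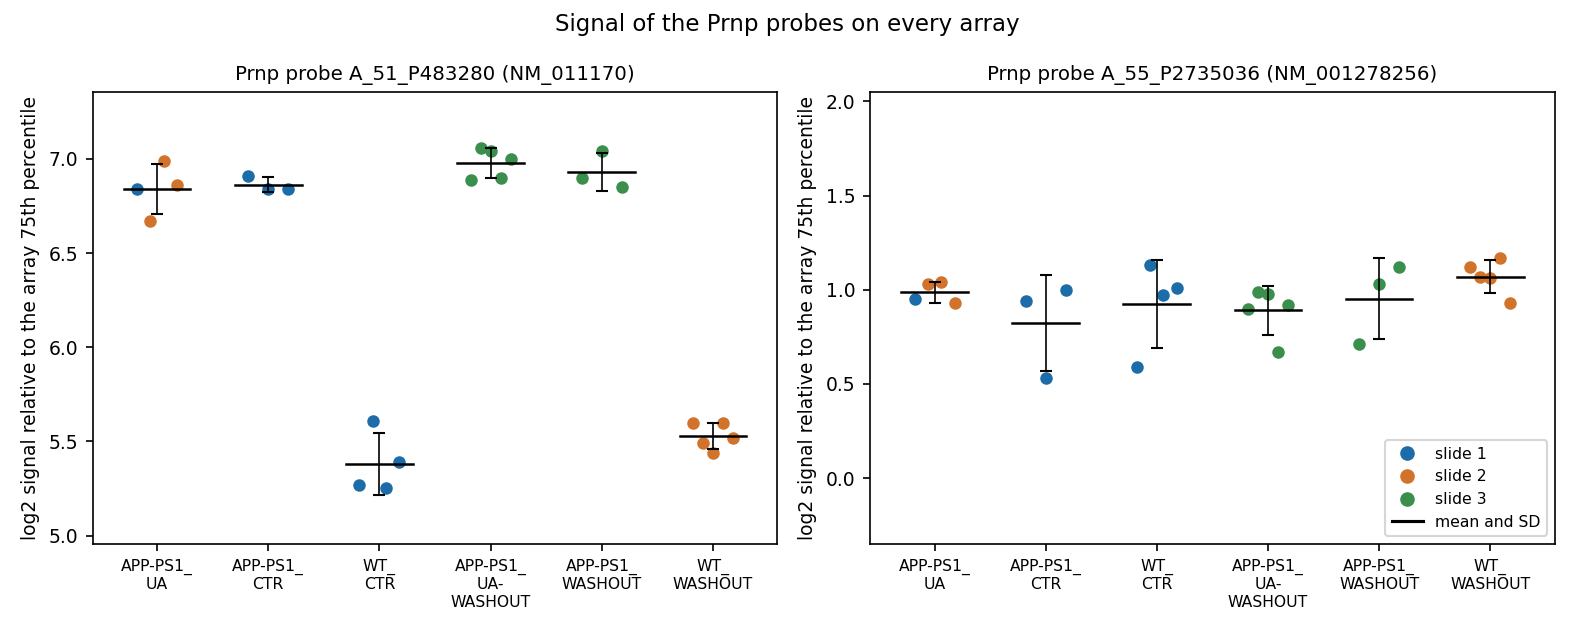
Each point is 1 array, the y axis is the log2 signal relative to the array's 75th percentile, colours give the slide, and lines with bars are group means with SD; A_51_P483280 is on the left and A_55_P2735036 on the right. The 15 transgenic arrays of A_51_P483280 lie between 6.67 and 7.06, all above the wild-type arrays at 5.25 to 5.61, whereas the groups of A_55_P2735036 overlap.

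Spread within groups was small for A_51_P483280. Its residual SD in the model of 6 group means was 0.104 log2 units, and 5.0% of the 43973 probes kept for testing had a smaller one. For A_55_P2735036 it was 0.167, with 22.9% of probes below it. The median over all kept probes was 0.26. Because each sample is a piece of tissue, more cells with the transcript and more transcript per cell cannot be told apart.

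The 4 differences between transgenic and wild-type animals at A_51_P483280 were alike in size. The probe was 1.46 log2 units higher in APP-PS1_UA than in WT_CTR (SE 0.09), or 2.76-fold, and 1.49 higher in APP-PS1_CTR than in WT_CTR (SE 0.09), or 2.80-fold. After washout it was 1.45 higher in APP-PS1_UA-WASHOUT than in WT_WASHOUT (SE 0.08), or 2.73-fold, and 1.40 higher in APP-PS1_WASHOUT than in WT_WASHOUT (SE 0.09), or 2.64-fold. The first 2 of these share the WT_CTR arrays and the last 2 share the WT_WASHOUT arrays. At A_55_P2735036 the corresponding differences were 0.06 (SE 0.12), -0.10 (SE 0.13), -0.18 (SE 0.11) and -0.12 (SE 0.13). Nothing is read from these contrasts by test, because the gene was chosen on them.

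The shares of the 43973 kept probes that passed the limma test in these contrasts, at a threshold of 0.05 after Benjamini-Hochberg adjustment, differed widely. They were 0.0432% for APP-PS1_UA minus WT_CTR (19 probes), 0.152% for APP-PS1_CTR minus WT_CTR (67 probes), 35.0% for APP-PS1_UA-WASHOUT minus WT_WASHOUT (15388 probes) and 25.8% for APP-PS1_WASHOUT minus WT_WASHOUT (11326 probes). With any 1 array of the contrast left out, these counts ran between 9 and 22, 26 and 43, 13809 and 15698, and 8112 and 11770. In the first, APP-PS1_UA replicate 1 lay on slide 1 with the WT_CTR arrays, and replicates 2, 3 and 4 lay on slide 2. In the last 2 the compared groups lay on different slides, and slide and group cannot be told apart there. Which way the called probes went there depended on the scaling. Of the probes called, 62.8% were higher in APP-PS1_UA-WASHOUT and 72% in APP-PS1_WASHOUT, against 27.3% and 39% when arrays were scaled by their median, 35.5% and 44.3% after quantile normalization and 28.4% and 38.1% on the deposited score. The median scaling moved all differences by -0.30 and -0.21, and brought A_51_P483280 to 1.15 in APP-PS1_UA-WASHOUT minus WT_WASHOUT and to 1.19 in APP-PS1_WASHOUT minus WT_WASHOUT. It moved APP-PS1_WASHOUT minus APP-PS1_CTR by -0.17 and the other pairwise contrasts by at most 0.09 in size.

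The genotypes were also apart within slides 1 and 2, at the values that chose the gene. On slide 1 the 4 transgenic arrays lay between 6.84 and 6.91 at A_51_P483280, against 5.25 to 5.61 on the 4 wild-type arrays. On slide 2 the 3 transgenic arrays lay between 6.67 and 6.99, against 5.44 to 5.60 on the 5 wild-type arrays. The transgenic arrays of slide 2 were all of APP-PS1_UA and its wild-type arrays all of WT_WASHOUT. Genotype, treatment and stage thus cannot be told apart on that slide. Slide 3 held 8 transgenic arrays, between 6.85 and 7.06, and no wild-type array. On slide 1 the wild-type arrays filled row 1 and the transgenic arrays row 2, so row and genotype cannot be told apart there. On slide 2 the 3 transgenic arrays lay in row 1 with 1 wild-type array, which read 5.60.

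**Figure D2:**
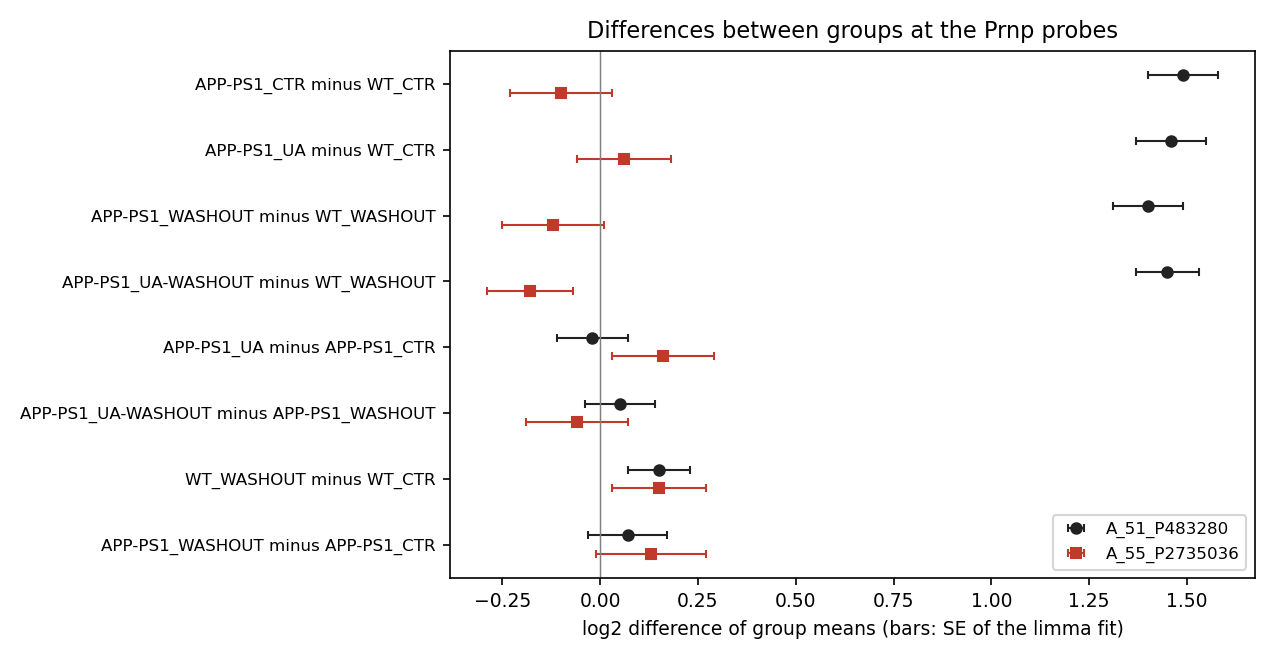
The x axis is the log2 difference of group means, with bars for the SE of the limma fit, circles for A_51_P483280 and squares for A_55_P2735036. The 4 transgenic minus wild-type differences of A_51_P483280 lie at 1.40 to 1.49, and all other differences lie between -0.18 and 0.16.

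Urolithin A did not move Prnp past the test at either probe or stage. A_51_P483280 changed by -0.02 log2 units in APP-PS1_UA minus APP-PS1_CTR (95% interval -0.22 to 0.17, limma adjusted p = 0.963), a difference whose sign turned under median scaling (0.01) and quantile normalization (0.08). A_55_P2735036 changed by 0.16 (-0.11 to 0.44, adjusted p = 0.755). Both probes overlapped between the groups. The APP-PS1_CTR arrays and APP-PS1_UA replicate 1 lay on slide 1, and APP-PS1_UA replicates 2, 3 and 4 on slide 2. Treatment and slide thus largely went together. On slide 1 only, with 1 treated array, the differences were -0.02 and 0.12. In that contrast limma called 0 of 43973 probes (0%), with 3492 at an unadjusted p under 0.05. Fits with the slide as a fixed term and with array weights called 10 and 9.

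After washout, the difference between APP-PS1_UA-WASHOUT and APP-PS1_WASHOUT was 0.05 at A_51_P483280 (-0.14 to 0.23, limma adjusted p = 0.952), and -0.04 under median scaling. It was -0.06 at A_55_P2735036 (-0.32 to 0.20, adjusted p = 0.958). The contrast called 0.0591% of probes (26, or 11 to 95 with 1 array left out), of which 34.6% were higher, against 21.4% under median scaling, 18.9% after quantile normalization and 12.2% on the deposited score. Other settings raised that share, to 92.8% of 3270 probes with no filter on dim probes and 50% of 4 with normexp. With only probes well above background on all arrays it was 66.7% of 3. A fit of the groups of the contrast only called 0. Whether the urolithin A effect differed between the stages was tested as the difference of the differences. It was 0.07 at A_51_P483280 (-0.20 to 0.34, adjusted p = 0.885), and -0.05 under both median scaling and quantile normalization. At A_55_P2735036 it was -0.22 (-0.60 to 0.16, adjusted p = 0.705), in a contrast that called 0.00227% of probes (1). The intervals of A_51_P483280 thus reached no further than -0.22 and 0.23 log2 units for either effect of urolithin A, against genotype differences of 1.40 to 1.49.

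Between the collections, Prnp did not pass the test at either probe with the 75th percentile scaling. The groups compared lay on different slides, so stage and slide cannot be told apart. In wild-type animals, WT_WASHOUT minus WT_CTR was 0.15 at A_51_P483280 (-0.02 to 0.32, limma adjusted p = 0.62) and 0.15 at A_55_P2735036 (-0.10 to 0.39, adjusted p = 0.718), in a contrast that called 0.0114% of probes (5, or 0 to 18 with 1 array left out). In transgenic animals, APP-PS1_WASHOUT minus APP-PS1_CTR was 0.13 at A_55_P2735036 (-0.17 to 0.42, adjusted p = 0.562), and -0.04 under median scaling. At A_51_P483280 it was 0.07 (-0.14 to 0.27, adjusted p = 0.681), but -0.10 under median scaling and -0.31 after quantile normalization, where it passed the test (adjusted p = 0.0417). That contrast called 21.5% of probes (9433, or 6939 to 7616 with 1 array left out), and its groups lay on slides 3 and 1. Of the called probes 73.5% were higher, against 47.5% under median scaling, 48% after quantile normalization and 41.9% on the deposited score.

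The ratio of the 2 Prnp probes within each array does not depend on a factor by which a whole array is scaled. It is given here as the log2 value of A_51_P483280 minus that of A_55_P2735036, less its mean over the 9 wild-type arrays. The ratio was 1.44, 1.19, 1.49 and 1.47 in APP-PS1_UA and 1.51, 1.85 and 1.39 in APP-PS1_CTR, against 0.22, 0.02, -0.18 and -0.07 in WT_CTR. It was 1.54, 1.61, 1.61, 1.77 and 1.62 in APP-PS1_UA-WASHOUT and 1.74, 1.55 and 1.27 in APP-PS1_WASHOUT, against 0.02, -0.04, -0.07, -0.03 and 0.13 in WT_WASHOUT. All 15 transgenic arrays lay above all 9 wild-type arrays, which follows from the values that chose the gene.

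Between urolithin A and water the ratio did not pass the test at either stage. Its SD was 0.14 in APP-PS1_UA, 0.24 in APP-PS1_CTR, 0.08 in APP-PS1_UA-WASHOUT and 0.24 in APP-PS1_WASHOUT. The difference was -0.19 at the end of treatment (two-sided exact permutation p = 0.343 over 35 arrangements, the smallest possible p being 0.0286). It was 0.11 after washout (exact permutation p = 0.393 over 56 arrangements, smallest possible 0.0179). With labels permuted within both stages it was -0.04 (exact permutation p = 0.705 over 1960 arrangements, smallest possible 0.00051). Adjusted over these 3 tests, the permutation p-values were 0.59, 0.59 and 0.705. APP-PS1_UA replicate 2, at 1.19, stood apart from the other 3 arrays of its group.

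**Figure D3:**
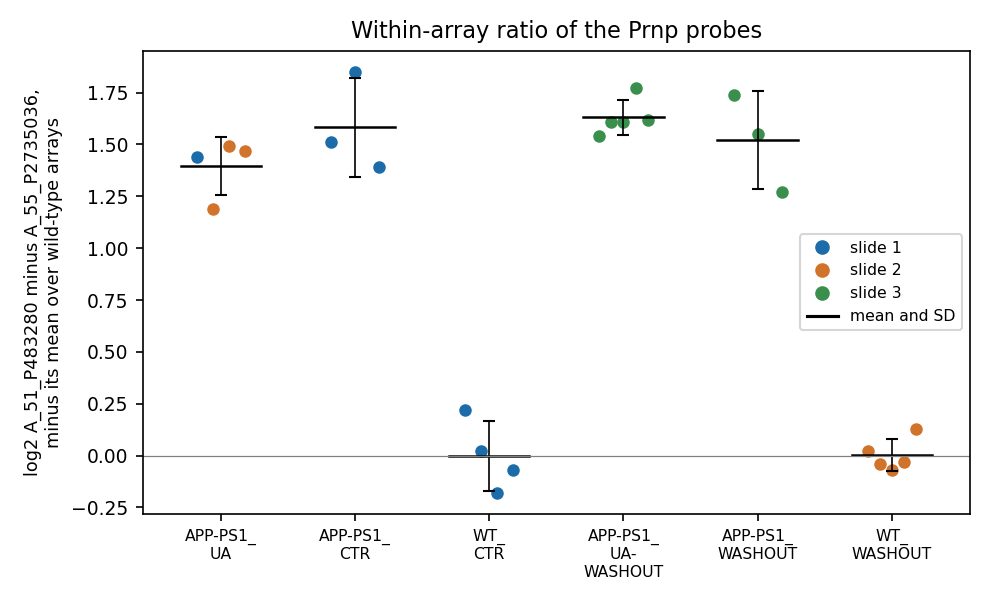
Each point is 1 array, the y axis is the log2 ratio of A_51_P483280 to A_55_P2735036 less its wild-type mean, colours give the slide, and lines with bars are group means with SD. Transgenic arrays lie at 1.19 to 1.85 and wild-type arrays at -0.18 to 0.22, with urolithin A and water groups overlapping at both stages.

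App, the mouse gene whose chimeric form the transgene encodes, was measured by 2 probes. App probe A_55_P2737159 averaged 5.80 ± 0.11 in APP-PS1_UA, 5.81 ± 0.06 in APP-PS1_CTR, 5.84 ± 0.15 in APP-PS1_UA-WASHOUT and 5.90 ± 0.15 in APP-PS1_WASHOUT, against 5.58 ± 0.16 in WT_CTR and 5.76 ± 0.10 in WT_WASHOUT (SD). Transgenic arrays spanned 5.66 to 6.05 and overlapped the wild-type arrays at 5.35 to 5.86. The difference was 0.24 in APP-PS1_CTR minus WT_CTR (SE 0.11, limma adjusted p = 0.72). It was 0.14 in APP-PS1_WASHOUT minus WT_WASHOUT (adjusted p = 0.342), but -0.07 under median scaling and -0.18 after quantile normalization. The dimmer App probe A_55_P2930235 gave -0.13 (adjusted p = 0.939) and 0.09 (adjusted p = 0.838) in the same contrasts. In APP-PS1_WASHOUT minus WT_WASHOUT its sign turned under median scaling (-0.12), quantile normalization (-0.28), normexp (-0.01) and on the deposited score (-0.07). Both App probes overlapped between genotypes, and whether either App probe detects the transcript of the transgene was not tested.

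The prion gene family has further members. Prnd, which encodes the related protein doppel and lies just downstream of Prnp, was not well above background in all of any group. Its probe A_51_P177371 was above background on 5 of 24 arrays, 3 of them in WT_CTR, and no fold is given. Sprn, which encodes shadoo, a further GPI-anchored relative, averaged 2.42 ± 0.18 in APP-PS1_UA, 2.52 ± 0.14 in APP-PS1_CTR, 2.47 ± 0.21 in APP-PS1_UA-WASHOUT and 2.48 ± 0.22 in APP-PS1_WASHOUT, against 2.53 ± 0.22 in WT_CTR and 2.33 ± 0.25 in WT_WASHOUT (SD). Its differences of -0.01 in APP-PS1_CTR minus WT_CTR (limma adjusted p = 0.993) and 0.15 in APP-PS1_WASHOUT minus WT_WASHOUT (adjusted p = 0.513) did not pass the test, and median scaling turned both signs (0.03 and -0.06).

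The array also has a probe, A_55_P2081840, for Prn, the annotated readthrough of Prnp into Prnd, which starts at the same base as Prnp and ends at 131956131 on chromosome 2. It shares that start with Prnp, and it was singled out after its values were seen. It averaged -5.57 ± 0.32 in APP-PS1_UA, -5.38 ± 0.23 in APP-PS1_CTR, -4.44 ± 0.35 in APP-PS1_UA-WASHOUT and -4.47 ± 0.16 in APP-PS1_WASHOUT, against -5.18 ± 0.35 in WT_CTR and -4.98 ± 0.75 in WT_WASHOUT (SD). The difference was -0.19 in APP-PS1_CTR minus WT_CTR (limma adjusted p = 0.921) and 0.51 in APP-PS1_WASHOUT minus WT_WASHOUT (adjusted p = 0.246), where it was 0.79 and passed the test without WT_WASHOUT replicate 3. Between stages in water-treated transgenic animals it was 0.91 (adjusted p = 0.0702), and it passed the test when slide was a random block. Slide and group cannot be told apart in the contrasts with APP-PS1_WASHOUT, whose arrays lay on slide 3 without those of the compared groups. The probe was dim on every array, at 0.0158 to 0.0593 times the 75th percentile in transgenic and 0.0182 to 0.0686 in wild-type animals. The genotypes overlapped at this probe, at -5.99 to -4.08 in transgenic and -5.78 to -3.87 in wild-type animals.

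The genes on either side of Prnp on chromosome 2 were followed as well, and whether the difference extends along the chromosome was not tested. The 5 nearest measured genes before it are Smox, Adra1d, Gm14285, 5330413P13Rik and Erv3, and the 5 after it are Prnd, Rassf2, Slc23a2, Gm14051 and Tmem230. In APP-PS1_CTR minus WT_CTR 0 of 10 passed the limma test (0.152% of all probes did), and their differences had a median of -0.01, against -0.02 over all probes, with a range of -0.47 to 0.59. APP-PS1_UA minus WT_CTR also called 0 of 10 (0.0432% of all probes). Erv3, the nearest gene upstream, differed by 0.38 in APP-PS1_UA minus WT_CTR (limma adjusted p = 0.823) and by 0.03 in APP-PS1_CTR minus WT_CTR (SE 0.16, adjusted p = 0.98).

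In APP-PS1_WASHOUT minus WT_WASHOUT, where 18.6% of all probes were called higher and 7.20% lower, 3 of the 10 neighbours passed. Erv3 rose by 0.81 (limma adjusted p = 0.000519) and 5330413P13Rik by 0.60 (adjusted p = 0.029), whereas Slc23a2, a vitamin C transporter, fell by 0.50 (adjusted p = 0.0288). The call of 5330413P13Rik was lost under median scaling and quantile normalization (adjusted p = 0.176 and 0.205). In APP-PS1_UA-WASHOUT minus WT_WASHOUT, where 22.0% were called higher and 13.0% lower, 2 of 10 passed, Erv3 with a rise of 0.66 (adjusted p = 0.000618) and Slc23a2 with a fall of 0.38 (adjusted p = 0.0407). Under median scaling that count was 7 of 10, 6 of them lower, where 6643 of all 43973 probes were called higher and 17667 lower. After quantile normalization Erv3 lost the call (0.32, adjusted p = 0.0631), and 0 were higher and 2 lower, where 6322 of all probes were called higher and 11491 lower. The 3 genes also passed between stages within transgenic animals: in APP-PS1_WASHOUT minus APP-PS1_CTR, where 15.8% were called higher and 5.69% lower, Erv3 changed by 0.85, 5330413P13Rik by 0.66 and Slc23a2 by -0.77. There too 5330413P13Rik lost the call under median scaling and quantile normalization (adjusted p = 0.143 and 0.166).

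**Figure D4:**
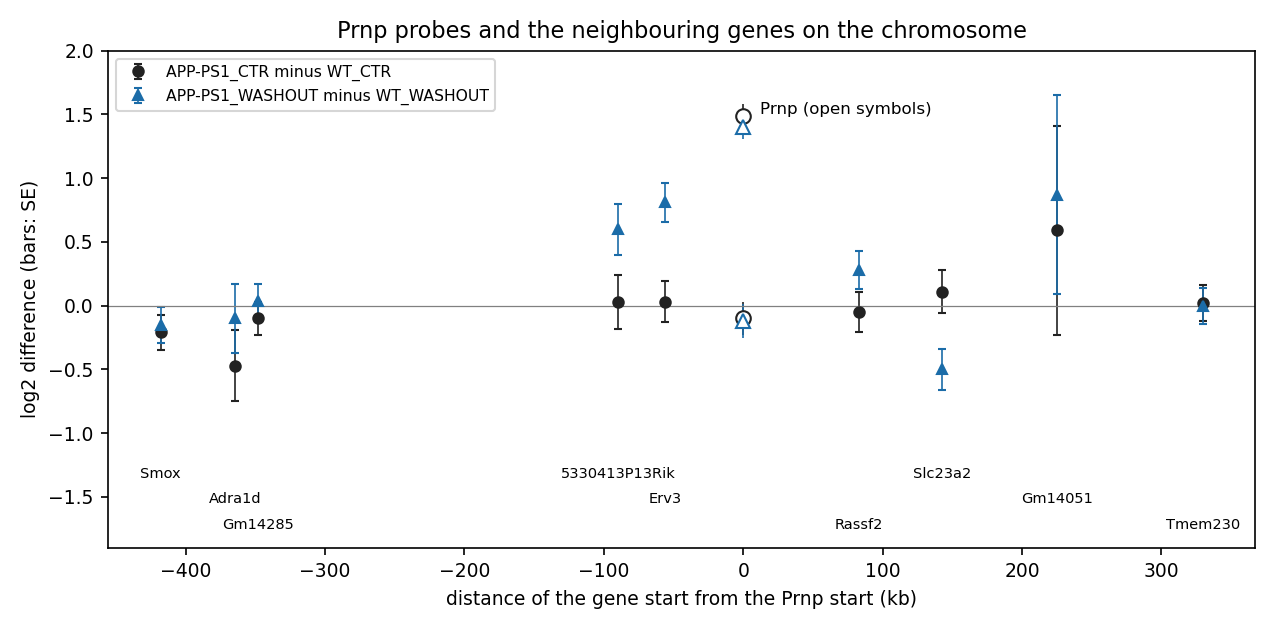
The x axis is the distance in kb of each gene's start from the Prnp start, and the y axis is the log2 difference with its SE, in black for APP-PS1_CTR minus WT_CTR and in blue for APP-PS1_WASHOUT minus WT_WASHOUT; the 2 Prnp probes are open symbols and Prnd is not drawn because it was not well above background. A_51_P483280 lies at 1.49 and 1.40, while A_55_P2735036 at -0.10 and -0.12 lies among the neighbours.

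Genes that work with PrP were followed as a list of 15 receptors, ligands and proteases reported to bind or cut it, all of them measured. At the end of treatment 0 of 15 passed the limma test in APP-PS1_UA minus WT_CTR, APP-PS1_CTR minus WT_CTR or APP-PS1_UA minus APP-PS1_CTR (0.0432%, 0.152% and 0% of all probes did). Their median was 0.05, 0.03 and 0.04 in these contrasts, against -0.03, -0.02 and -0.01 over all probes. In APP-PS1_UA-WASHOUT minus APP-PS1_WASHOUT 0 of 15 passed as well, where 0.0591% of all probes were called. Adam10, the protease known for shedding PrP, differed by 0.33 in APP-PS1_UA minus WT_CTR (adjusted p = 0.823) and by 0.16 in APP-PS1_CTR minus WT_CTR (adjusted p = 0.817).

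In APP-PS1_WASHOUT minus WT_WASHOUT, against 25.8% of all probes, 2 of the 15 rose and 1 fell. Cav1, a caveolar scaffold protein, rose by 1.24 (limma adjusted p = 0.0303) and Rpsa, the laminin receptor, by 0.46 (adjusted p = 0.00374), and Stip1, a co-chaperone that binds PrP, fell by 0.60 (adjusted p = 0.00432). Cav1 (adjusted p = 0.055) and Rpsa (0.129) lost the call under median scaling, where 0 rose and 3 fell. That scaling called 5756 of all 43973 probes higher and 8991 lower. Both genes also lost the call after quantile normalization (adjusted p = 0.275 and 0.154). There 0 rose and 1 fell, and 5027 of all probes were called higher and 6331 lower. In APP-PS1_UA-WASHOUT minus WT_WASHOUT, against 35.0% of all probes, 2 rose and 3 fell. Cav1 rose by 1.70 and Rpsa by 0.35, while Stip1 fell by 0.63 and Grm5, a metabotropic glutamate receptor that couples to PrP, by 0.42, and the fifth was Fyn. Under median scaling 1 rose and 10 fell, and Rpsa differed by 0.05 (adjusted p = 0.711). Of all 43973 probes, 6643 were called higher and 17667 lower under that scaling. The list's medians in the 2 contrasts were -0.06 and -0.14, against 0.07 and 0.03 over all probes.

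The 16 genes of GPI anchor assembly, through which PrP is attached to the membrane, were all measured. In APP-PS1_UA minus WT_CTR, APP-PS1_CTR minus WT_CTR and both urolithin A contrasts among transgenic animals, 0 of 16 passed the limma test, with medians between -0.07 and 0.01, against -0.03 to -0.01 over all probes. The shares of all probes called in these contrasts were 0.0432%, 0.152%, 0% and 0.0591%. In APP-PS1_WASHOUT minus WT_WASHOUT, where 18.6% of all probes were called higher and 7.20% lower, 2 of 16 rose and 0 fell, Pigo by 0.28 (adjusted p = 0.00552) and Pgap2 by 0.30 (adjusted p = 0.017). Under median scaling 0 rose and 5 fell there, with Pigo at 0.07 (adjusted p = 0.58) and Pgap2 at 0.09 (adjusted p = 0.485). That scaling called 5756 of all 43973 probes higher and 8991 lower. After quantile normalization Pigo (0.29, adjusted p = 0.00614) and Pgap2 (0.31, adjusted p = 0.0141) kept the call. There 2 rose and 3 fell, and 5027 of all probes were called higher and 6331 lower. In APP-PS1_UA-WASHOUT minus WT_WASHOUT, where 22.0% were called higher and 13.0% lower, 2 of 16 rose and 4 fell. Under median scaling 0 rose and 8 fell there, where 6643 of all 43973 probes were called higher and 17667 lower. The genes called lower included Pigk, a subunit of the transamidase that attaches the anchor, by 0.37 (adjusted p = 0.00294) and Pigf by 0.25 (adjusted p = 0.0423). The other 2 were Pigl, well above background on 1 of 5 APP-PS1_UA-WASHOUT arrays and 5 of 5 WT_WASHOUT arrays, and Pigb, on 0 of 5 and 1 of 5, and no size is given for them.

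Among 5 factors reported to act on Prnp transcription, 0 passed the limma test in APP-PS1_UA minus WT_CTR, APP-PS1_CTR minus WT_CTR, APP-PS1_UA minus APP-PS1_CTR or APP-PS1_UA-WASHOUT minus APP-PS1_WASHOUT, where 0.0432%, 0.152%, 0% and 0.0591% of all probes were called. Sp1, which binds GC boxes such as those capitalised in the promoter above, differed by 0.07 in APP-PS1_UA minus WT_CTR (adjusted p = 0.928) and by 0.16 in APP-PS1_CTR minus WT_CTR (adjusted p = 0.82). It fell by 0.50 in APP-PS1_UA-WASHOUT minus WT_WASHOUT (adjusted p = 0.00101) and by 0.39 in APP-PS1_WASHOUT minus WT_WASHOUT (adjusted p = 0.025), and it passed in the same direction under median scaling and quantile normalization. Thus 1 of 5 passed there, in contrasts that called 35.0% and 25.8% of all probes, and the list's medians were -0.13 and -0.05, against 0.03 and 0.07 over all probes. Sp1 also fell by 0.53 in APP-PS1_WASHOUT minus APP-PS1_CTR (adjusted p = 0.00889). Mtf1, Hsf1, Xbp1 and Trp53 did not pass in either contrast with WT_WASHOUT at the 75th percentile scaling. Median scaling called 3 of the 5 factors lower in APP-PS1_UA-WASHOUT minus WT_WASHOUT, and 17667 of all 43973 probes lower.

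Probes with a profile like that of A_51_P483280 were found by the root mean square difference of centred log2 values over the 24 arrays, among 10318 probes whose group means spanned at least 1 log2 unit. The profile of A_51_P483280 itself has a root mean square of 0.71 about its mean, which is the value a flat profile would give. The closest were Trem2 (0.24), Tyrobp (0.26), Gpr84 (0.26), C4b (0.27) and Mpeg1 (0.28). Hcst followed with 2 probes (0.29 and 0.30), then Cd68 (0.30), Il4i1 (0.30) and Bcl2a1d (0.32). Trem2 is a receptor of microglia and Tyrobp its signalling adaptor, Cd68 and Mpeg1 are macrophage and microglial genes, and C4b is a complement component. The measure is a description over arrays that share their groups and slides.

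Trem2 read 2.01 to 2.93 on transgenic and 1.23 to 1.52 on wild-type arrays, and averaged 2.39 in APP-PS1_UA and 2.49 in APP-PS1_CTR, against 1.40 in WT_CTR. The opposite profile was closest in 2 probes of Wdfy1 (0.26 and 0.27), which encodes a protein of early endosomes. Wdfy1 probe A_52_P328825 read 0.06 to 0.55 on transgenic arrays, against 1.68 to 2.31 on wild-type arrays. The next, Arpp21, lay at 0.44, and 2 probes without a symbol at 0.49 each, and in these 3 the genotypes overlapped.

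**Figure D5:**
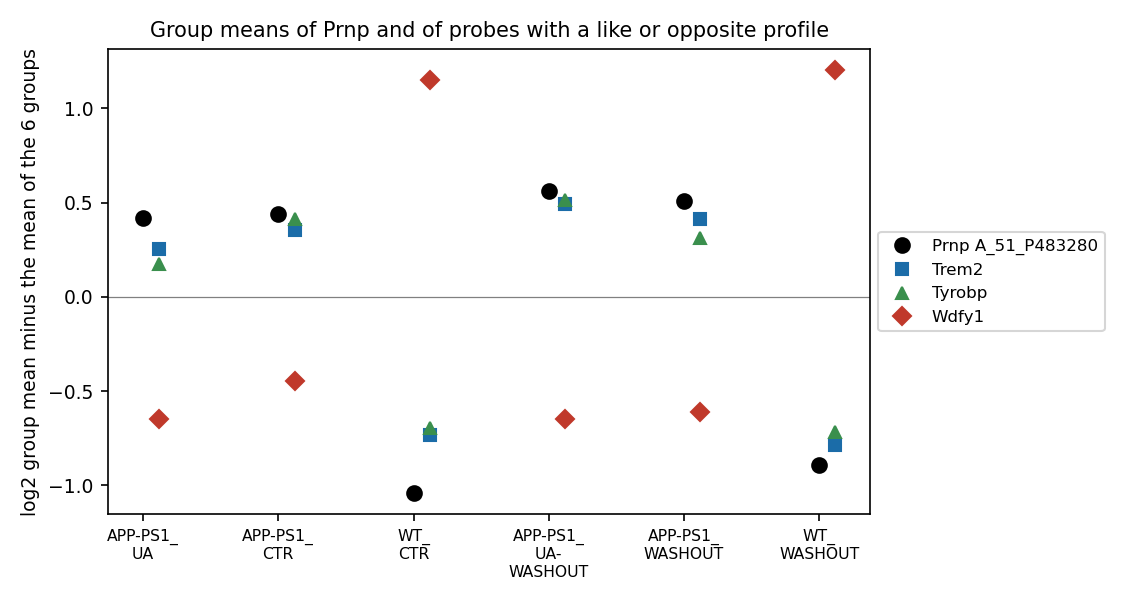
The y axis is each probe's group mean less the mean of its 6 group means, in log2 units, for A_51_P483280, Trem2, Tyrobp and Wdfy1 (A_52_P328825). The first 3 lie above 0 in the 4 transgenic groups and below 0 in both wild-type groups, and Wdfy1 does the opposite.

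Of 43973 kept probes, 90 (0.205%) had all 15 transgenic arrays above all 9 wild-type arrays, and 2 (0.00455%) had them all below. By the width of the gap A_51_P483280 was at rank 7 of the 90. Wider gaps were found at Cst7 (4.47), Itgax (1.91), probe A_51_P246653 (1.76), Ccl4 (1.45 and 1.26) and Ccl3 (1.37), and the next below it was Gm11545 (0.57). Cst7 is an inhibitor of cysteine proteases, Itgax an integrin of phagocytes, and Ccl3 and Ccl4 are chemokines.

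Microglial markers were higher in transgenic animals, as was A_51_P483280. The summed signal of 5 of 5 microglial markers, as multiples of the 75th percentile, ran between 30.1 and 39.2 in APP-PS1_UA, 33.3 and 34.2 in APP-PS1_CTR, 31.6 and 42 in APP-PS1_UA-WASHOUT and 33 and 42.6 in APP-PS1_WASHOUT, against 23.6 to 26.6 in WT_CTR and 20.5 to 29.5 in WT_WASHOUT. Astrocyte markers (5 of 5) summed to 33.7 to 36.1 in APP-PS1_UA and 34.8 to 35.6 in APP-PS1_CTR, against 28.1 to 33.6 in WT_CTR. After washout they summed to 32.6 to 36.9 in APP-PS1_UA-WASHOUT and 36.2 to 39.2 in APP-PS1_WASHOUT, against 32.6 to 34.2 in WT_WASHOUT. Neuronal markers (5 of 5) summed to 172 to 213, 175 to 217 and 171 to 194 in APP-PS1_UA, APP-PS1_CTR and WT_CTR. In APP-PS1_UA-WASHOUT, APP-PS1_WASHOUT and WT_WASHOUT they summed to 197 to 240, 218 to 247 and 167 to 205. The sum of 6 choroid plexus markers ran between 2.58 and 168 within APP-PS1_UA alone, where A_51_P483280 spanned 6.67 to 6.99. All markers of these lists were well above background on all arrays, and their part in the Prnp difference was not tested.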

How the data were processed

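Agilent one-colour arrays, 24 on 3 slides of 8, each held RNA from the hippocampus of a male mouse. Per the file headers the authors extracted spot intensities with the scanner software Feature Extraction, version 12.0.3.1. The deposited processed signal is an intensity with background subtracted within the array. The deposited value table holds a score, each array's log signal standardized to mean 0 and SD 1, which was tested on the files (largest deviation 0.005, column medians -0.17 to -0.06). Its log base is unknown, its centring is on the array mean, and a higher score means more signal. It was used as an alternative.

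Outlier-flagged values were dropped (1125 among kept probes), signals were divided by each array's 75th percentile over non-control probes, and log2 was taken. Probes well above background on at least 3 arrays, with at least 2 values per group, were kept (43973 of 56605), and RefSeq accessions named 32994 of 56605. A single limma model of 6 group means was fitted to all arrays, with 9 contrasts and Benjamini-Hochberg adjustment over all kept probes. A gene of a list was represented by its brightest kept probe. The test was tried on simulated data for APP-PS1_UA minus APP-PS1_CTR over 43973 probes: of 100 probes changed by 1.5 log2 units 82% were recovered, and of 100 changed by 1.0, 52%. The simulated noise was independent between probes and arrays, with each probe's residual SD and no slide effect. Recovery in the real contrast, where treatment and slide largely went together, was thus not tested. R 4.3.3, limma 3.58.1, Python 3.11.15, pandas 2.3.3, numpy 2.4.6 and matplotlib 3.10.9 were used.

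Prnp, the lists and the tests were chosen with earlier results of these data known. Named were all probes of Prnp and App, Prnd and Sprn, up to 4 called members of each list per contrast, the 10 nearest profiles and the 5 nearest with the sign turned. The labels do not say that same-numbered animals belong together. P-values measure the spread between samples of a group, and the number of arrays limits the precision. Alternatives were normexp background correction, median and quantile scaling, the deposited score, other filters, slide, row and replicate terms, array weights, the contrast's groups only, 1 slide only, and leaving out each array. No protein sequence table was used here.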

Additional observations from a re-analysis of the deposited data

Results flagged for a closer look

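The ratio of the Prnp probes, A_51_P483280 to A_55_P2735036, was 1.19 on the array of APP-PS1_UA replicate 2, below the other 3 arrays of that group at 1.44, 1.49 and 1.47. The array was set apart by its gap to the nearest of the others, relative to the range of the group, in a test for single outlying samples among 28 groups of values, of which chance alone marks about 1 in 20. On that array A_51_P483280 read 6.67, the lowest of the 15 transgenic arrays, and A_55_P2735036 read 1.03. Without it, A_51_P483280 differed by 0.03 in APP-PS1_UA minus APP-PS1_CTR.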

How the results depend on the processing

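At A_51_P483280 the 4 transgenic minus wild-type differences kept their direction under every alternative run. Their lowest values in log2 units came after quantile normalization (1.0 in APP-PS1_WASHOUT minus WT_WASHOUT and 1.02 in APP-PS1_UA-WASHOUT minus WT_WASHOUT), followed by median scaling (1.19 and 1.15). On the deposited score they were 0.33, 0.33, 0.48 and 0.38 score units for APP-PS1_UA, APP-PS1_CTR, APP-PS1_UA-WASHOUT and APP-PS1_WASHOUT, on a scale that is not log2. With 1 array left out they ran between 1.41 and 1.54, 1.44 and 1.56, 1.43 and 1.47, and 1.35 and 1.44 in the same order. At A_55_P2735036 median scaling gave -0.33 in APP-PS1_WASHOUT minus WT_WASHOUT and -0.48 in APP-PS1_UA-WASHOUT minus WT_WASHOUT.

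Median scaling turned A_51_P483280 in APP-PS1_UA minus APP-PS1_CTR (0.01), APP-PS1_UA-WASHOUT minus APP-PS1_WASHOUT (-0.04), APP-PS1_WASHOUT minus APP-PS1_CTR (-0.10) and the difference of the urolithin A effects (-0.05), and A_55_P2735036 in APP-PS1_WASHOUT minus APP-PS1_CTR (-0.04). Quantile normalization gave 0.08, -0.31 and -0.05 at A_51_P483280 in APP-PS1_UA minus APP-PS1_CTR, APP-PS1_WASHOUT minus APP-PS1_CTR and the difference of effects, and -0.31 passed the test (limma adjusted p = 0.0417). The within-array ratio over both stages was 0.03 on the deposited score. With 1 array left out, the ratio under urolithin A ran between -0.28 and -0.05 at the end of treatment, -0.02 and 0.22 after washout and -0.10 and 0.03 over both. A_51_P483280 ran between -0.07 and 0.03 in APP-PS1_UA minus APP-PS1_CTR, and A_55_P2735036 between -0.18 and 0.02 in APP-PS1_UA-WASHOUT minus APP-PS1_WASHOUT and between -0.02 and 0.25 in APP-PS1_WASHOUT minus APP-PS1_CTR. Their cause was not tested. Untested differences at A_55_P2735036 also turned with 1 array left out: -0.05 to 0.13 in APP-PS1_UA minus WT_CTR, -0.21 to 0.05 in APP-PS1_CTR minus WT_CTR and -0.20 to 0.01 in APP-PS1_WASHOUT minus WT_WASHOUT.

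Among related genes, Sprn in APP-PS1_CTR minus WT_CTR was 0.03 under median scaling, 0.09 with the array row as a term, 0.00 with a replicate block, and between -0.11 and 0.07 with 1 array left out. Sprn in APP-PS1_WASHOUT minus WT_WASHOUT was -0.06 under median scaling, and Prn in APP-PS1_CTR minus WT_CTR 0.21 with the row term. App A_55_P2737159 in APP-PS1_WASHOUT minus WT_WASHOUT was -0.07 under median scaling and -0.18 after quantile normalization. App A_55_P2930235 ran between -0.35 and 0.09 with 1 array left out in APP-PS1_CTR minus WT_CTR, and in APP-PS1_WASHOUT minus WT_WASHOUT -0.01 with normexp, -0.12 under median scaling, -0.28 after quantile normalization, -0.07 on the score and -0.01 without WT_WASHOUT replicate 2. Prn rose to 0.79 and passed the test in that contrast without WT_WASHOUT replicate 3.

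Counts of called probes moved widely over the alternatives. They ran between 0 and 10 for APP-PS1_UA minus APP-PS1_CTR (0 as reported), 0 and 3270 for APP-PS1_UA-WASHOUT minus APP-PS1_WASHOUT (26), 4 and 34 for APP-PS1_UA minus WT_CTR (19), and 9 and 176 for APP-PS1_CTR minus WT_CTR (67). They ran between 10565 and 25424 for APP-PS1_UA-WASHOUT minus WT_WASHOUT (15388), 6657 and 14747 for APP-PS1_WASHOUT minus WT_WASHOUT (11326), 4248 and 14861 for APP-PS1_WASHOUT minus APP-PS1_CTR (9433), 0 and 85 for WT_WASHOUT minus WT_CTR (5), and 0 and 317 for the difference of the urolithin A effects (1).

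Replicate numbers did not pair the samples, since deviations of same-numbered arrays correlated at a median of 0.01 (-0.28 to 0.34 over 52 pairs), as did those of different numbers. With the replicate block A_51_P483280 gave 1.49 in APP-PS1_CTR minus WT_CTR and -0.03 in APP-PS1_UA minus APP-PS1_CTR (limma adjusted p = 0.957). The block moved the count for APP-PS1_UA-WASHOUT minus APP-PS1_WASHOUT to 13 and that for WT_WASHOUT minus WT_CTR to 0. Normexp used the median spot signal, and normexp and slide as a fixed term were chosen after seeing the data. The planned normexp on the mean signal was not run, and with 1 probe per gene A_55_P2735036 has no value.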
